A study of Mus musculus with 2 samples.

Results

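A set of 10 genes of the integrated stress response and of amino acid stress was followed in RNA-seq profiles of whole mouse uterus. They were chosen by name, as Atf4 with its partners and targets, and all 10 were found among the 20634 genes listed in each library. The libraries were 1 labelled Mettl3 ed/ed and 1 labelled Mettl3 f/f, from females mated at 6 to 8 weeks of age and killed on gestational day 4, with the plug day counted as day 1. The labels leave the letters of both genotypes unexplained and do not say which cells lack Mettl3 or how many animals were pooled. Each genotype had 1 library, so every difference below is between 2 libraries and has no replicate check. Mettl3 encodes the enzyme that places N6-methyladenosine (m6A) on messenger RNA.

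The integrated stress response starts with kinases that phosphorylate the translation factor eIF2 when proteins misfold, amino acids run short, haem is lacking or double-stranded RNA appears. Phosphorylated eIF2 slows translation in general while that of Atf4 mRNA, whose leader holds upstream reading frames, increases, so the amount of ATF4 protein is set largely after transcription. ATF4 then binds C/EBP-ATF response elements with partners such as CHOP (Ddit3) and C/EBP proteins and switches on genes for amino acid synthesis, amino acid uptake, redox balance and feedback. In mouse fibroblasts m6A in the leader of Atf4 mRNA has been reported to take part in this translational control. RNA levels measured here do not report ATF4 protein or eIF2 phosphorylation.

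The core C/EBP-ATF letters TGATGNAA were searched on both strands of RefSeq promoter windows that run from 250 bases before to 50 after each gene's start (GRCm38.p6). They were found for 3 of the 10 genes, Asns, Chac1 and Trib3, against 2.25% of the windows of expressed genes and 3.97% of all 32851 windows. These percentages are of windows, and a gene can have several. The 10 genes were chosen as Atf4 with its partners and targets, so no conclusion is drawn from their share. The palindrome TGACGTCA, the cyclic AMP response element to which ATF and CREB proteins bind, was found for 1, Ppp1r15a, against 3% of the windows of expressed genes. The endoplasmic reticulum stress element (ERSE), bound by ATF6 with NF-Y, was found for 0 of the 10 and in 0.12% of the windows of expressed genes. The stretches that hold these letters are shown because they set Asns, Chac1, Trib3 and Ppp1r15a apart from the other 6 in these windows. Capitals mark the match, and each is written 5′ to 3′ on the strand of its gene, from chr6:7693210-7693258 (minus strand) for Asns, chr2:119351023-119351082 (plus) for Chac1, chr2:152344028-152344057 (minus) for Trib3 and chr7:45526269-45526306 (minus) for Ppp1r15a.
Asns: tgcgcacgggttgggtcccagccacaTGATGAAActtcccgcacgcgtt
Chac1: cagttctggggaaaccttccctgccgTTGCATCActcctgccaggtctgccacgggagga
Trib3: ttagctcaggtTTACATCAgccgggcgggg
Ppp1r15a: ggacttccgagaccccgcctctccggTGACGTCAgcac
Positions of matches are counted from the RefSeq start, which is base 7693209 for Asns, 119351242 for Chac1, 152344060 for Trib3 and 45526268 for Ppp1r15a. Of these only that of Ppp1r15a is also the start of the GENCODE M21 gene, whose coordinates are given with each gene below. The match of Asns began 23 bases before the RefSeq start, within the GENCODE gene, and that of Ppp1r15a 12 bases before it. In Chac1 the match lay on the opposite strand, 193 bases before the RefSeq start. In Trib3 it lay on the opposite strand, from the 15th base of the RefSeq gene and before the GENCODE gene. A match is a description of letters and not evidence of binding. Over 266 expressed genes with TGATGNAA in a window the median log2 ratio of ed/ed over f/f was -0.24, against -0.26 over 9469 without it.

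FPKM, the unit taken for the deposited values, divides fragments by transcript length and by the total mapped, so levels of different genes can be set side by side. Estimated depth was 17300000 fragments in ed/ed and 18300000 in f/f. Mettl3 itself was at 10.2 FPKM in ed/ed and 10.6 FPKM in f/f, so its total transcript level did not separate the libraries. Log2 ratios are of FPKM + 1, ed/ed over f/f, which understates differences of low genes, and their median was -0.26 over the 12165 genes that reached 1 FPKM in at least 1 library. Scalings by the sum, upper quartile, median ratio or reference genes raised ed/ed values by 0.09, 0.21, 0.28 and 0.34 on the log2 scale. Actb was at 1154 FPKM in ed/ed and 964 FPKM in f/f. Cell-type markers also differed between the libraries. The 10 stroma markers summed to 553 FPKM in ed/ed and 1100 FPKM in f/f, and 4 of 10 (Pdgfra, Col3a1, Col1a1 and Hand2) were at least 2-fold lower, against 6.22% of all genes, 1 without the length trend described below. The 10 endothelium markers summed to 104 and 235 FPKM in ed/ed and f/f, with 7 of 10 at least 2-fold lower, 2 without the length trend. The 10 smooth muscle markers summed to 1042 FPKM in ed/ed and 663 FPKM in f/f (Cnn1 at least 2-fold higher), the 9 epithelium markers to 2817 and 2772 FPKM (0 of 9 past 2-fold) and the 10 leukocyte markers to 225 and 117 FPKM (Lyz2 higher). Most of the leukocyte sum was Lyz2 alone, at 188 FPKM in ed/ed and 86.6 FPKM in f/f. Of the 8 expressed leukocyte markers, 6 had a log2 ratio above 0 and 2 below. Without the length trend 3 smooth muscle markers, 2 epithelium markers and 1 leukocyte marker were at least 2-fold higher. Over all genes 2.68% were at least 2-fold higher, and without the length trend 4.32% were higher and 2.85% lower. Of these markers only Cd79a, a B cell gene, was listed at 0, in both libraries. The part of cell composition in the differences below was not tested, and in whole tissue fewer cells of a type and less RNA per cell cannot be told apart.

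Atf4 RNA was higher in ed/ed, at 115 FPKM against 81.1 FPKM in f/f. Sesn2 was the only one of the 10 past 2-fold on the scale of FPKM + 1, at 3.17 FPKM in ed/ed and 14.4 FPKM in f/f. Asns, Ddit4 and Atf5 were lower in ed/ed by similar amounts, with ratios of estimated fragments of 0.584 to 0.606. Trib3, near 1 FPKM, had a fragment ratio of 0.344, past 2-fold there but not on the scale of FPKM + 1. Eif2ak3, Ppp1r15a and Ddit3 lay near the median of all genes. Of the 10 genes, 9 reached 1 FPKM in a library, Trib3 in f/f alone. Of these 9, 0 were at least 2-fold higher and 1 was at least 2-fold lower, against 2.68% and 6.22% of all genes compared. By a 1.5-fold rule 0 were higher and 5 lower (Sesn2, Trib3, Asns, Ddit4 and Atf5), against 7.04% and 23.4% of all genes. The log2 ratio was below 0 in 8 of the 9, against 70.4% of all genes. Their median log2 ratio was -0.70, which is 0.44 below that of all genes.

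**Figure D1:**
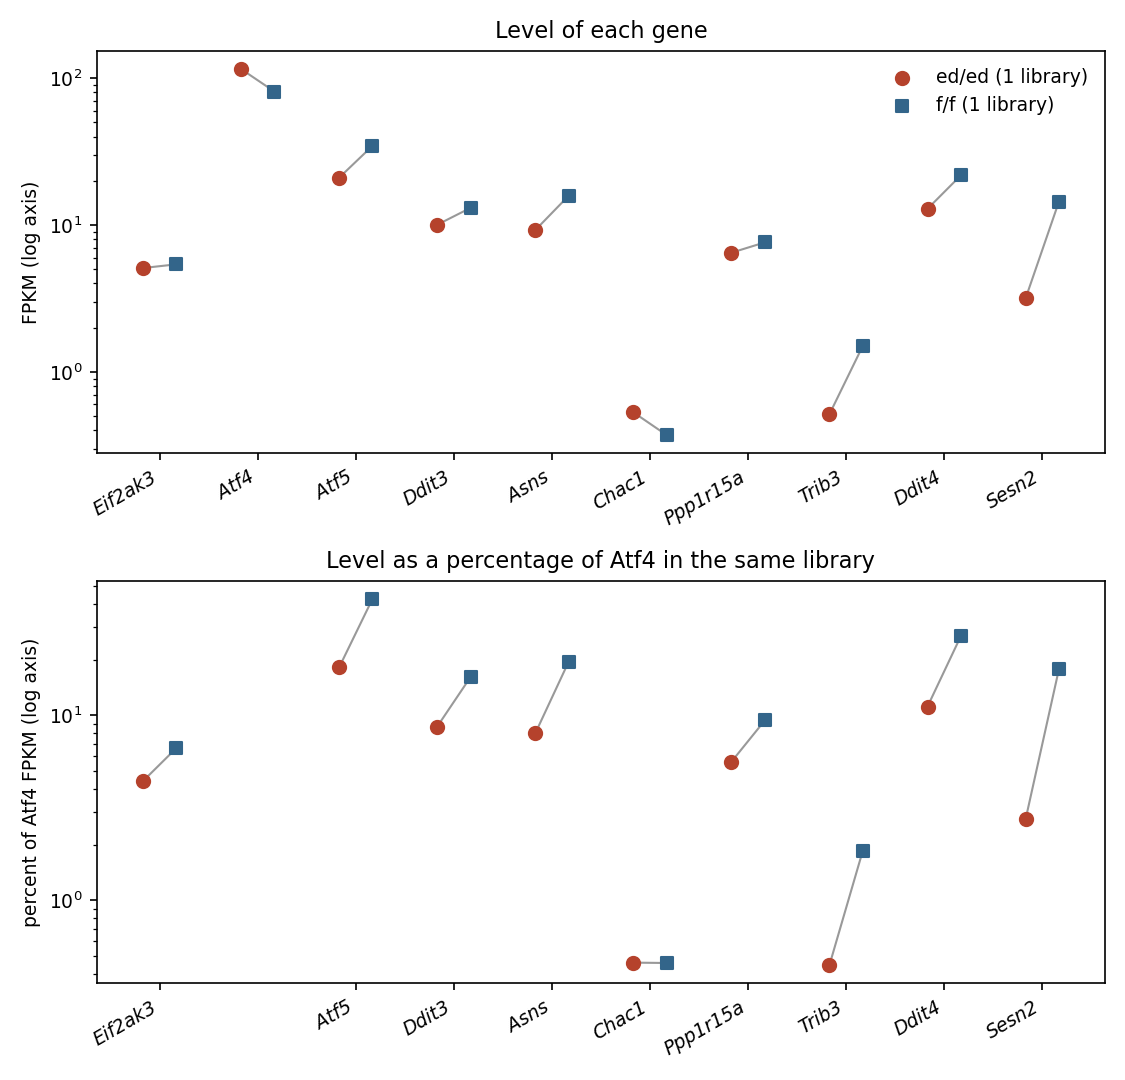
Upper plot, FPKM of each gene on a log axis in the ed/ed library (circles, left) and the f/f library (squares, right), with a line joining the 2 values of a gene. Lower plot, the same values as a percentage of Atf4 FPKM in the same library, where 8 of 9 genes are lower in ed/ed and Chac1 is level at 0.46% in both. Of all genes compared, 91.5% had a lower log2 ratio than Atf4.

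Eif2ak3 (ENSMUSG00000031668, chromosome 6, 70844515 to 70905245, GRCm38) encodes PERK, the eIF2 kinase of the endoplasmic reticulum. It was at 5.09 FPKM in ed/ed and 5.40 FPKM in f/f. Its log2 ratio of -0.07 turned positive under all 4 other scalings (0.00 to 0.22), and the ratio of estimated fragments, 0.944, had a 95% counting interval of 0.819 to 1.09. The direction for PERK RNA therefore depended on the scaling, and under none did it reach 2-fold.

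Atf4 (ENSMUSG00000042406, chromosome 15, 80255184 to 80257541) encodes the transcription factor at the centre of the response. It was the most abundant of the 10 in both libraries, at 115 FPKM in ed/ed and 81.1 FPKM in f/f. The values rest on an estimated 2952 fragments in ed/ed and 2186 in f/f, a ratio of 1.42 with a counting interval of 1.35 to 1.51. Its log2 ratio of 0.50 exceeded the all-gene median by 0.76, and 8.51% of the genes compared had a higher ratio. Under the 4 other scalings it ran from 0.59 to 0.84. Atf4 stayed within 2-fold under each alternative tried.

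Atf5 (ENSMUSG00000038539, chromosome 7, 44812256 to 44816658) encodes a related bZIP factor whose mRNA also carries upstream reading frames and which serves the mitochondrial unfolded protein response. It was at 20.997 FPKM in ed/ed and 34.6 FPKM in f/f, with a log2 ratio of -0.70 and a fragment ratio of 0.606 (interval 0.546 to 0.673). Atf4 and Atf5 thus lay on opposite sides of 0 in the same pair of libraries under every scaling tried. Atf5 RNA equalled 18.2% of Atf4 RNA in ed/ed and 42.7% in f/f. Atf5 shares 82 nt of exon, 4.11% of its exon bases, with Nup62 and Il4i1 on the opposite strand. Nup62 was at 14.6 FPKM in ed/ed and 12.05 FPKM in f/f, and Il4i1 was at 0.388 FPKM in ed/ed and 0.513 FPKM in f/f.

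Ddit3 (ENSMUSG00000025408, chromosome 10, 127290774 to 127296288) encodes CHOP, the ATF4 partner linked to cell death under lasting stress. It was at 10.04 FPKM in ed/ed and 13.1 FPKM in f/f. The log2 ratio of -0.35 was 0.09 below the median of all genes, and the fragment ratio was 0.765 (0.593 to 0.983) from an estimated 111 fragments in ed/ed and 153 in f/f. CHOP RNA was thus close to the shift shared by all genes. In GENCODE, Ddit3 shares 105 nt of exon with a further gene entry of the same name and 68 nt with Mars on the opposite strand, which are not analysed here.

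Asns (ENSMUSG00000029752, chromosome 6, 7675169 to 7693254) encodes asparagine synthetase, which makes asparagine from aspartate and glutamine. It was at 9.23 FPKM in ed/ed and 15.8 FPKM in f/f, a log2 ratio of -0.72 and a fragment ratio of 0.584 (0.503 to 0.676). The sign held under the 4 other scalings, from -0.64 to -0.41. Chac1 (ENSMUSG00000027313, chromosome 2, 119351229 to 119354381), whose product degrades glutathione, was the one gene that stayed below 1 FPKM in both libraries. It was at 0.530 FPKM in ed/ed and 0.371 FPKM in f/f. These levels rest on an estimated 13 and 9 fragments, and the counting interval of their ratio, 0.602 to 4.04, spans differences in both directions. Of the genes that hold TGATGNAA, Asns and Trib3 had lower values in ed/ed, and a difference in Chac1 was not detectable at its depth.

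Ppp1r15a (ENSMUSG00000040435, chromosome 7, 45522916 to 45526268) encodes GADD34, which directs protein phosphatase 1 to eIF2 and ends the response. It was at 6.48 FPKM in ed/ed and 7.61 FPKM in f/f. Its log2 ratio of -0.20 was 0.06 above the median of all genes and turned positive under 2 of the 4 other scalings, and the fragment ratio was 0.853 (0.727 to 0.999). Trib3 (ENSMUSG00000032715, chromosome 2, 152337422 to 152344032) encodes a pseudokinase that binds ATF4 and CHOP and damps their activity. It was at 0.515 FPKM in ed/ed and 1.504 FPKM in f/f, from an estimated 16 and 49 fragments. The fragment ratio was 0.344, with an interval of 0.183 to 0.616, whereas the log2 ratio of FPKM + 1 was only -0.72. With a pseudocount of 0.1 FPKM the log2 ratio of Trib3 was -1.38, past 2-fold. The feedback genes thus differed from each other, with Trib3 low and well below its f/f value and GADD34 close to the shift of all genes.

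Ddit4 and Sesn2 encode stress-induced inhibitors of mTORC1, the kinase complex that promotes growth when amino acids are plentiful. Ddit4 (REDD1, ENSMUSG00000020108, chromosome 10, 59949669 to 59951834) acts through the TSC complex and is also induced by glucocorticoids and hypoxia. It was at 12.9 FPKM in ed/ed and 21.8 FPKM in f/f, with a log2 ratio of -0.71 and a fragment ratio of 0.592 (0.517 to 0.678). Sesn2 (sestrin 2, ENSMUSG00000028893, chromosome 4, 132492032 to 132510501) binds leucine and holds back the GATOR2 complex when leucine is scarce, and is a target of p53, NRF2 and ATF4. It was at 3.17 FPKM in ed/ed and 14.4 FPKM in f/f, from an estimated 177 and 852 fragments. The fragment ratio was 0.219, with an interval of 0.185 to 0.258. On the FPKM + 1 scale Sesn2 was 3.71-fold lower in ed/ed (log2 ratio -1.89), and 0.526% of the genes compared had a lower ratio. It stayed more than 2-fold lower under each alternative tried, from -2.15 to -1.25. By level, Sesn2 stood between Eif2ak3 and Chac1 in ed/ed and between Asns and Ddit3 in f/f.

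**Figure D2:**
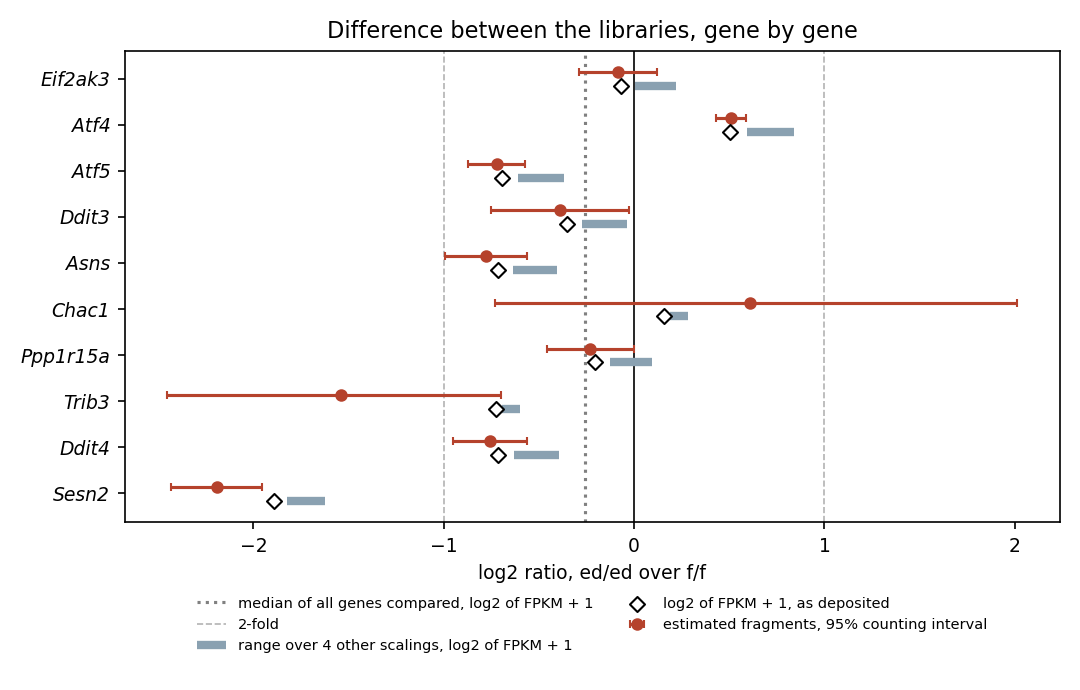
Log2 ratio of ed/ed over f/f for each of the 10 genes. Filled circles with bars are the ratio of estimated fragments with its 95% counting interval, open diamonds the ratio of FPKM + 1 as deposited and grey bars its range over 4 other scalings. Atf4 lies right of 0 and Sesn2 left of the 2-fold line on every scale shown.

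Ratios between genes of a library do not depend on how the library is scaled. Relative to Atf4, 8 of the 9 other genes were lower in ed/ed. That is near the share over all genes, as 91.5% of the genes compared had a lower log2 ratio than Atf4. Sesn2 RNA equalled 2.75% of Atf4 RNA in ed/ed and 17.8% in f/f. Asns equalled 8.00% in ed/ed and 19.5% in f/f, and Ddit4 11.2% in ed/ed and 26.9% in f/f. Trib3 equalled 0.447% in ed/ed and 1.86% in f/f. Ddit3 stood at 8.70% in ed/ed and 16.1% in f/f, Ppp1r15a at 5.62% in ed/ed and 9.39% in f/f, and Eif2ak3 at 4.42% in ed/ed and 6.66% in f/f. Since Atf4 is the denominator throughout, these 9 percentages share its own difference between the libraries. No transcript of a differently named gene in GENCODE M21 matched Atf4, Sesn2 or any other of the 10 at 90% identity over 200 nt. The exception was an unclassified transcript that overlaps Eif2ak3. Entries that share a gene's own name, such as the further Ddit3 entry, were left out of this search.

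Log2 ratios over all genes were also lower for longer transcripts. When genes were split by length into 10 groups of equal size, the median was -0.01 for the shortest transcripts and -0.43 for the longest. Sesn2, with a transcript of 3475 nt, belonged to a group with a median of -0.27, and Atf4, at 1725 nt, to one with a median of -0.13. With the length trend removed the log2 ratio of Sesn2 was -1.62 and that of Atf4 0.66. Asns, Atf5, Trib3 and Ddit4 were then at -0.53, -0.53, -0.54 and -0.55, and Eif2ak3 and Ppp1r15a at 0.25 and 0.02. Without the length trend 0 of the 9 genes were at least 2-fold higher and Sesn2 was still the 1 lower, against 4.32% and 2.85% of all genes.

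**Figure D3:**
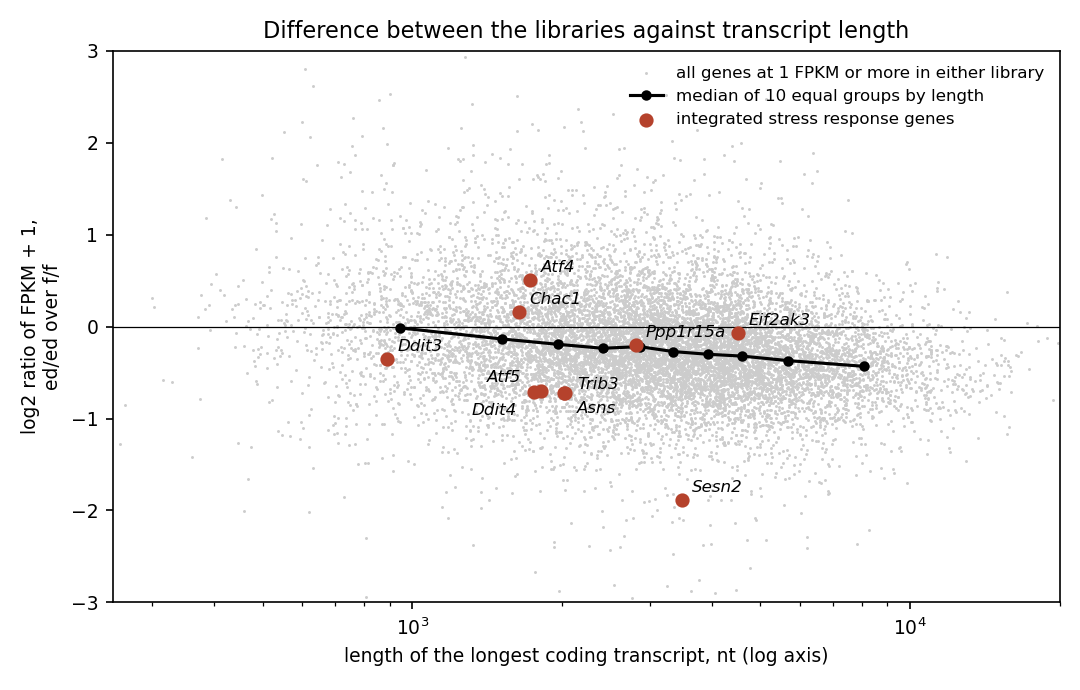
Log2 ratio of FPKM + 1, ed/ed over f/f, against the length of the longest coding transcript (log axis) for all genes compared (grey), the medians of 10 equal groups by length (black) and the 10 stress response genes (red); 28 points lie outside the axes. Asns, Atf5, Ddit4 and Trib3 have transcripts of 1755 to 2026 nt and log2 ratios near -0.7, well below the medians of genes of that length, and Sesn2 lies farther below.

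Genes that sense stress and act on eIF2 were compared next, and the counts of this and the following lists are to be read against a background of 2.68% of all genes at least 2-fold higher and 6.22% lower (4.32% and 2.85% with length removed as a trend). Of 18 expressed genes for eIF2 kinases, eIF2 and eIF2B subunits, the phosphatase and related factors, 0 were at least 2-fold lower and 1 higher. The median log2 ratio of this list was -0.47, or 0.21 below that of all genes and between -0.38 and -0.14 under the other scalings. The kinase gene Eif2ak1 (HRI, sensing haem) was at 13.5 FPKM in ed/ed and 21.4 FPKM in f/f, and Eif2ak4 (GCN2, sensing uncharged tRNA) at 4.18 FPKM in ed/ed and 6.73 FPKM in f/f. Eif2ak2 (PKR, sensing double-stranded RNA) was at 11.5 FPKM in ed/ed and 11.9 FPKM in f/f, and its log2 ratio of -0.04 turned positive under the 4 other scalings. Of the 4 kinase genes, PERK and PKR thus had ratios above that median, and HRI and GCN2 below it. Without the length trend GCN2, at -0.22, lay just above the list median of -0.23. Ppp1r15b, the constitutive counterpart of GADD34, was at 19.7 FPKM in ed/ed and 23.6 FPKM in f/f, and the catalytic subunit gene Ppp1ca at 109 FPKM in ed/ed and 183 FPKM in f/f. Nck1, an adaptor that binds PERK and phosphatase 1, was the gene past 2-fold, at 53.7 FPKM in ed/ed and 24.8 FPKM in f/f. Eif2b2 was at 11.6 FPKM in ed/ed and 21.8 FPKM in f/f. Eif2d, whose product is not a subunit of eIF2 or eIF2B, was at 11.3 FPKM in ed/ed and 20.8 FPKM in f/f.

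Among 21 bZIP factors that pair with or resemble ATF4, 2 were at least 2-fold higher and 1 lower, or 4 and 0 once the length trend was removed, and the median of -0.05 turned positive under the 4 other scalings. Cebpd, an acute-phase C/EBP factor, was at 112 FPKM in ed/ed and 12.7 FPKM in f/f. Batf3 was at 3.80 FPKM in ed/ed and 0.967 FPKM in f/f, from an estimated 36 and 10 fragments. Creb3l2 was at 3.92 FPKM in ed/ed and 9.05 FPKM in f/f, within 2-fold under the 4 other scalings. Jund was at 206 FPKM in ed/ed and 112 FPKM in f/f. The ATF4 partner Cebpb was at 43.3 FPKM in ed/ed and 33.9 FPKM in f/f, Cebpg at 25.1 FPKM in ed/ed and 22.9 FPKM in f/f, and the ATF4 target Atf3 at 1.81 FPKM in ed/ed and 2.45 FPKM in f/f.

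Genes for the supply of amino acids showed both directions. Of 20 synthesis and folate enzymes, 0 were at least 2-fold higher and 2 lower (1 and 1 with length removed as a trend), with a median of -0.14, or 0.12 above that of all genes and between -0.07 and 0.12 under the other scalings. Bcat1, a branched-chain aminotransferase, was at 14.8 FPKM in ed/ed and 80.0 FPKM in f/f, and its log2 ratio of -2.36 was the lowest of that list. Gpt2 was at 14.5 FPKM in ed/ed and 30.4 FPKM in f/f, within 2-fold under the 4 other scalings. Mthfd2, of mitochondrial folate metabolism, was at 19.7 FPKM in ed/ed and 39.9 FPKM in f/f, and the serine synthesis gene Psat1 at 19.5 FPKM in ed/ed and 37.8 FPKM in f/f. Of 12 expressed amino acid transporters, 1 was at least 2-fold higher and 2 lower (1 and 1 with length removed as a trend), with a median of -0.19, between -0.11 and 0.11 under the other scalings. Slc7a11, the cystine carrier, was at 1.23 FPKM in ed/ed and 5.52 FPKM in f/f. Slc36a1 was at 2.61 FPKM in ed/ed and 6.43 FPKM in f/f, within 2-fold under the 4 other scalings, and the arginine carrier Slc7a1 at 5.01 FPKM in ed/ed and 10.2 FPKM in f/f. The glutamine carrier Slc1a5 lay on the other side, at 110 FPKM in ed/ed and 53.7 FPKM in f/f. Of 20 cytosolic aminoacyl-tRNA synthetases 0 passed 2-fold in either direction, but 16 lay below the median of all genes, with a list median of -0.41, or 0.15 below. That median lay between -0.32 and -0.08 under the other scalings and was -0.09 without the length trend. Lars was at 9.12 FPKM in ed/ed and 15.2 FPKM in f/f, Farsb at 23.6 FPKM in ed/ed and 37.7 FPKM in f/f, Qars at 38.6 FPKM in ed/ed and 61.3 FPKM in f/f, and Kars at 40.2 FPKM in ed/ed and 61.1 FPKM in f/f.

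Other genes reported as ATF4 or CHOP targets were also divided. Of 23 expressed, 2 were at least 2-fold higher and 3 lower (3 and 1 with length removed as a trend), with a median of -0.17, or 0.09 above that of all genes and between -0.09 and 0.16 under the other scalings. Nupr1, a stress-induced chromatin protein, was at 27.0 FPKM in ed/ed and 9.15 FPKM in f/f, and Gadd45a at 20.8 FPKM in ed/ed and 8.46 FPKM in f/f. Bbc3, which encodes the cell death protein PUMA, was at 5.86 FPKM in ed/ed and 16.1 FPKM in f/f, and the lipoprotein receptor gene Vldlr at 7.28 FPKM in ed/ed and 18.1 FPKM in f/f. The death receptor gene Tnfrsf10b, named after its values were seen, was the other lower one, at 9.29 FPKM in ed/ed and 19.97 FPKM in f/f. Only Bbc3 of these 3 stayed at least 2-fold lower under the 4 other scalings, with log2 ratios from -1.24 to -1.02. Vldlr ran from -1.13 to -0.90 and Tnfrsf10b was within 2-fold. Fgf21 and Adm2, secreted products of strong ATF4 activity, were listed at 0 in both libraries.

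The neighbouring stress pathways lay close to the shift of all genes. Of 26 expressed genes of the ATF6 and XBP1 arms, 0 were at least 2-fold higher and 1 lower (1 and 0 with length removed as a trend), with a median of -0.20, or 0.06 above and between -0.12 and 0.13 under the other scalings. The chaperone gene Hspa5 (BiP), the usual marker of endoplasmic reticulum stress, was at 142 FPKM in ed/ed and 135 FPKM in f/f, a log2 ratio of 0.07. Xbp1 was at 35.0 FPKM in ed/ed and 40.9 FPKM in f/f, Syvn1 at 21.3 FPKM in ed/ed and 33.4 FPKM in f/f, and Calr at 170.01 FPKM in ed/ed and 256 FPKM in f/f. Atf6b was at 13.2 FPKM in ed/ed and 27.7 FPKM in f/f, within 2-fold under the 4 other scalings, and Mbtps1, the protease that first cuts ATF6, at 110 FPKM in ed/ed and 56.7 FPKM in f/f, past 2-fold under those scalings. Of 12 mitochondrial stress genes 0 passed 2-fold, with a median of -0.18 (-0.10 to 0.15 under the other scalings), and Hspe1 was at 414 FPKM in ed/ed and 341 FPKM in f/f while Yme1l1 was at 13.9 FPKM in ed/ed and 24.8 FPKM in f/f. Trap1 was at 23.7 FPKM in ed/ed and 29.96 FPKM in f/f, and Opa1 at 7.69 FPKM in ed/ed and 9.80 FPKM in f/f.

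Sestrin 2 and REDD1 act on mTORC1, whose amino acid sensing genes had a median of -0.37 over 24 expressed members (0.11 below that of all genes, and -0.29 to -0.04 under the other scalings), with 0 at least 2-fold higher and 1 lower. Rptor, the scaffold of mTORC1, was at 5.86 FPKM in ed/ed and 13.4 FPKM in f/f, within 2-fold under the 4 other scalings and at -0.68 without the length trend. The GATOR1 subunit genes Depdc5 and Nprl2 were at 4.71 and 8.23 FPKM in ed/ed, against 9.84 and 15.6 FPKM in f/f. Mtor was at 3.55 FPKM in ed/ed and 6.25 FPKM in f/f. Of 12 autophagy genes reported as ATF4 or CHOP targets 0 passed 2-fold, and the median was -0.36, or 0.10 below that of all genes and between -0.28 and -0.03 under the other scalings. Sqstm1, the cargo receptor p62, was at 69.1 FPKM in ed/ed and 121 FPKM in f/f, Nbr1 at 19.2 FPKM in ed/ed and 32.3 FPKM in f/f, Gabarapl2 at 49.5 FPKM in ed/ed and 77.5 FPKM in f/f, and Atg5 at 12.6 FPKM in ed/ed and 18.6 FPKM in f/f.

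**Figure D4:**
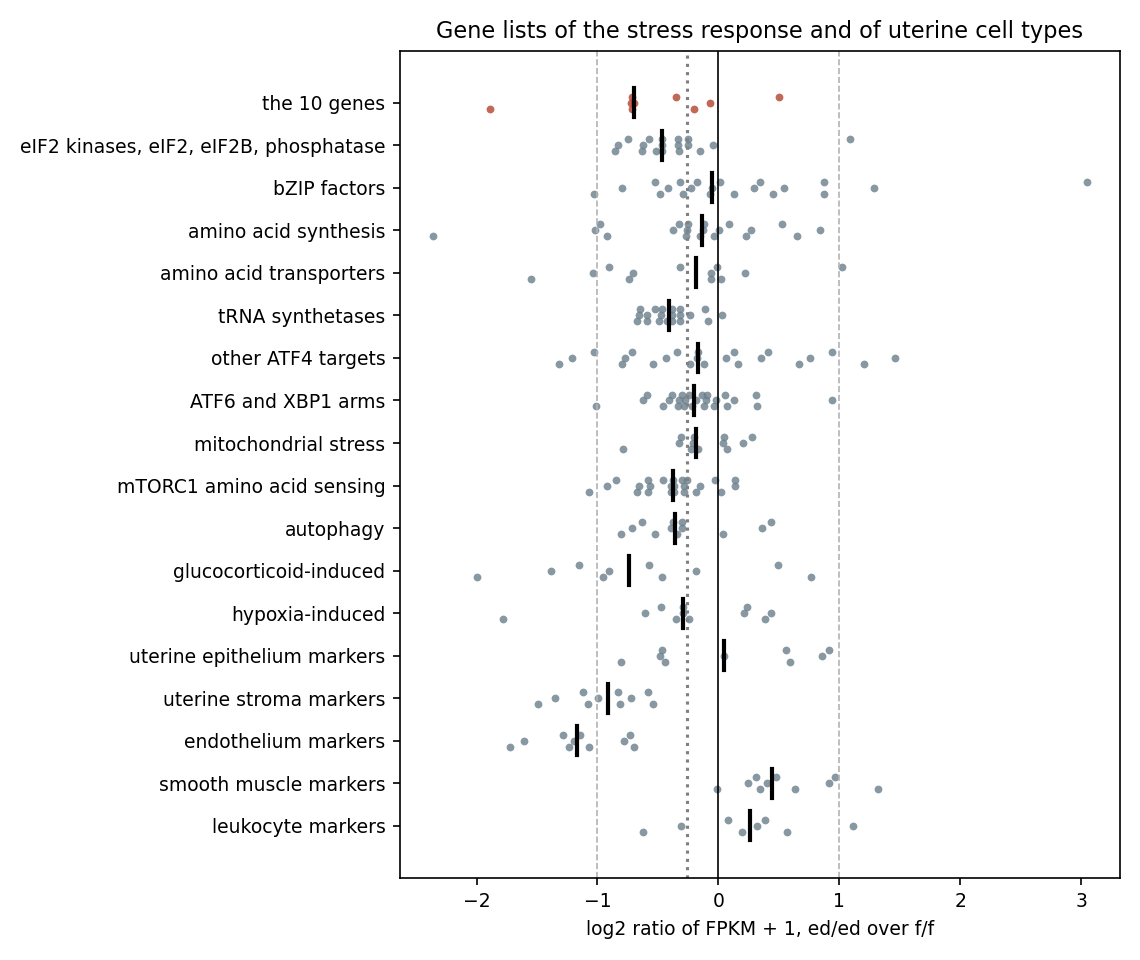
Log2 ratio of FPKM + 1, ed/ed over f/f, of each gene that reached 1 FPKM in a library, by list. Black bars are list medians, the dotted line is the median of all genes (-0.26) and dashed lines mark 2-fold. The lists above the cell-type markers have medians between -0.74 and -0.05, while those of stroma and endothelium markers are at -0.91 and -1.17 and that of smooth muscle markers at 0.44.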

How the data were processed

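Total RNA of whole uterus from 1 ed/ed and 1 f/f library was sequenced after TruSeq preparation, per the labels' protocols. The deposited tables give 1 value per gene, taken as FPKM because the submitters' processing notes name Cufflinks 2.2.1, with HISAT2 2.2.1, and because the authors' values are decimals with differing sums; the headers name no unit. Those notes name builds mm9 and mm10 without a role. The sources used here do not give strandedness.

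Both tables were joined on gene identifier. A pseudocount of 1 FPKM was added to every value before the log2 ratio of ed/ed to f/f was taken, genes below 1 FPKM in both libraries were left out, and 2-fold was the size at which a gene was called. With 1 library per genotype no test was made. Transcript lengths came from GENCODE M21 (GRCm38) and promoter windows from RefSeq (GRCm38.p6). Fragments per library were estimated from the spacing of low FPKM values in genes with 1 transcript over 1000 nt, using lengths reduced by 250 nt, an assumption. Ratios of estimated fragments carry exact Clopper-Pearson 95% intervals (scipy 1.17.1), which cover counting error only. The depth estimate and the 2-fold rule were tested on simulated data. Simulated depths used the same reduced lengths, so they cannot check that assumption. Fragments of each gene were computed with the length of its longest coding transcript. Sequence likeness between transcripts was searched with blastn 2.17.0 (90% identity over 200 nt), and the length trend was fitted with lowess (statsmodels 0.14.6, fraction 0.3).

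The genes described and the 12 pathway lists were chosen with earlier results of these data known. An epithelium marker is not reported here. Of each of these lists, the text names up to 4 expressed genes with the largest absolute log2 ratio, plus the other eIF2 kinases, Ppp1r15b, Atf3, Cebpb, Cebpg, Hspa5, Xbp1 and Actb. Alternatives were other pseudocounts, filters, scalings and fold rules, and removal of the length trend.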

Additional observations from a re-analysis of the deposited data

How the results depend on the processing

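No paired analysis was possible because each genotype had 1 library. Sesn2 was at least 2-fold lower and 0 of the 10 genes at least 2-fold higher under each pseudocount, filter, scaling, fold rule and length correction tried. The count of lower genes was 2 with a pseudocount of 0.1 FPKM (Sesn2 and Trib3) and 5 with a 1.5-fold rule, against 23.4% of all genes lower by that rule. The median log2 ratio of -0.70 became -0.27 with a pseudocount of 5 FPKM, -0.52 with no filter and with a filter at 5 FPKM, -0.53 without the length trend, -0.43 scaled by the median ratio, -0.49 by the upper quartile and -0.37 by reference genes. For single genes, values are given where the shift from the main log2 ratio was larger than the distance from the gene's log2 fragment ratio to the bound of its counting interval on that side. Atf4 became 0.59, 0.78, 0.71 and 0.84 scaled by the sum, median ratio, upper quartile and reference genes, and 0.66 without the length trend. Scaled by median ratio, upper quartile and reference genes, Atf5 became -0.43, -0.49 and -0.37 (-0.53 without the length trend) and Ddit4 -0.45, -0.52 and -0.40. Scaled by median ratio and reference genes, Asns became -0.46 and -0.41, Ppp1r15a 0.042 and 0.094, and Eif2ak3 0.17 and 0.22 (0.25 without the length trend). Sesn2 became -2.15 and -1.25 with pseudocounts of 0.1 and 5 FPKM, -1.62 scaled by reference genes and -1.62 without the length trend. The cause of these shifts is the construction of each alternative. For the other lists, 184 of the medians and counts recomputed moved and 338 did not. Over all genes, 326 were higher and 757 lower as deposited, 667 and 350 scaled by reference genes, and 489 and 1336 with a pseudocount of 0.1 FPKM. Depth limits Chac1 and Trib3, which rest on few fragments, and no value here carries the spread between animals.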

Other observations

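Ddit4 is also a target of the glucocorticoid receptor and of hypoxia-inducible factors, and lists for these signals were compared as well. Of 10 glucocorticoid-induced genes, 0 had a 2-fold higher and 3 a 2-fold lower level in ed/ed (0 and 2 without the length trend). Their median log2 ratio was -0.74, or 0.48 below that of all genes, and ran from -0.66 to -0.43 under the 4 other scalings. In 2 of the 10 the log2 ratio was above 0, at most 0.76. Scaled by the median ratio, 1 was at least 2-fold higher and 2 lower, against 583 and 398 of 12263 genes. The same counts held scaled by reference genes, against 667 and 350 of 12284. Over all genes 2.68% had a 2-fold higher and 6.22% a 2-fold lower level (4.32% and 2.85% without the length trend). The kinase gene Sgk1 was at 17.6 FPKM in ed/ed and 73.2 FPKM in f/f, Zbtb16 at 4.22 FPKM in ed/ed and 12.6 FPKM in f/f, Tsc22d3 (GILZ) at 53.9 FPKM in ed/ed and 121 FPKM in f/f, and Fkbp5 at 12.4 FPKM in ed/ed and 25.1 FPKM in f/f. Of 11 expressed hypoxia-induced genes 0 were higher and 1 lower, with a median of -0.29, or 0.03 below that of all genes (-0.21 to 0.02 under the other scalings). Pfkfb3, which promotes glycolysis, was at 58.2 FPKM in ed/ed and 203 FPKM in f/f, whereas Egln1 was at 125 FPKM in ed/ed and 92.2 FPKM in f/f. Egln3 was at 1.5001 FPKM in ed/ed and 2.81 FPKM in f/f, and Adm at 1.43 FPKM in ed/ed and 2.38 FPKM in f/f.

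The pentamer GGACU, a frequent form of the m6A consensus, was counted in the longest coding transcript of each gene after the values had been seen. Sesn2 held 9 copies, or 2.59 per kilobase, and Atf4 held 1, or 0.58 per kilobase, the highest and the lowest density of the 10 genes. The median over 12158 expressed genes was 1.05 per kilobase. Spearman's rho between density and log2 ratio was -0.52 over the 10 genes and 0.04 over all expressed genes, which are not independent replicates. Among 4 groups of genes of equal size by density, the median log2 ratios were -0.26, -0.29, -0.29 and -0.19 from the least dense to the densest. The letters do not show that a site is methylated.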
